A study of Homo sapiens with 60 samples.

Results

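The 10 genes described here control ferroptosis and were chosen as a list: GPX4, SLC7A11, SLC3A2, ACSL4, AIFM2, LPCAT3, TFRC, FTH1, FTL and ACSL3. All 10 were found among the 19712 genes of both deposited tables, and all passed the filter on low counts in every line. They were measured by RNA-seq in 4 EGFR-mutant non-small cell lung cancer lines, PC9, HCC827, H1975 and HCC2935, each in 5 arms of 3 biological replicates, 60 libraries in all. Parental cells had been kept without drug for 21 days and then received vehicle (the arm called DMSO here) or 500 nM osimertinib, an inhibitor of mutant EGFR, for 24 h (acute). Drug-tolerant persisters, DTPs, were what was left after 21 days in 500 nM osimertinib. Such DTPs were also taken off the drug for 24 h (short washout) or for longer (long washout), which was 7 days in PC9, 4 days in HCC827, 3 days in H1975 and 10 days in HCC2935. Each line stands for 1 tumour, the growth conditions in the labels are those of H1975 alone, and each arm is a bulk culture, so a lower level may be fewer cells of a kind or less RNA per cell, which cannot be told apart.

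Ferroptosis is a form of cell death that follows from iron-dependent peroxidation of polyunsaturated fatty acids in membrane phospholipids. GPX4, a selenoprotein, reduces the lipid peroxides with glutathione, whose cysteine comes largely from cystine imported by the SLC7A11 and SLC3A2 heterodimer, while AIFM2 (FSP1) regenerates the radical trap ubiquinol without glutathione. ACSL4 and LPCAT3 load polyunsaturated fatty acids into phospholipids, ACSL3 activates monounsaturated fatty acids, and TFRC brings in the iron that FTH1 and FTL store. Drug-tolerant persister cells are known as a state in which loss of GPX4 is often lethal.

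Some control of these genes is written in short stretches of their RNA. GPX4 carries selenocysteine at its active site, encoded by a TGA that would otherwise be read as stop, here in capitals with the coding bases around it. The iron-responsive element (IRE) is the hairpin that iron regulatory proteins bind, in the 5′ UTR of FTH1 and FTL, where binding is known to block translation, and in the 3′ UTR of TFRC, where it is known to stabilise the RNA. Capitals mark its bulged C and the CAGTG of its loop. The stretches come from the GENCODE release 29 transcripts (GRCh38) and each is written 5′ to 3′ on the strand of its gene.
GPX4 selenocysteine codon, chr19:1105391-1105417, plus strand, exon: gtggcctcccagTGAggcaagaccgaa
FTH1 IRE, chr11:61967575-61967601, minus strand, 5′ UTR: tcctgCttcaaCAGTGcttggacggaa
FTL IRE, chr19:48965336-48965362, plus strand, 5′ UTR: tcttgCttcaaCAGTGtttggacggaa
TFRC IRE, chr3:196050980-196051006, minus strand, 3′ UTR: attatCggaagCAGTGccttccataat
TFRC IRE, chr3:196050576-196050602, minus strand, 3′ UTR: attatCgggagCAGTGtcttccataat
TFRC IRE, chr3:196050511-196050537, minus strand, 3′ UTR: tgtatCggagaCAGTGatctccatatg
TFRC IRE, chr3:196050464-196050490, minus strand, 3′ UTR: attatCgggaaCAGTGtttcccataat
The IRE was searched as a C, any 5 bases, CAGTG and any base but G, where the 5 bases after the C pair with the 5 that follow (G with T allowed), on the sense strand only. Of 19644 protein-coding genes, 0.132% had a match in a 5′ UTR and 0.529% in a 3′ UTR, and among the 10 genes these 3 did. In the 300-base promoters of RefSeq (GRCh38.p14), which held 8 of the 10 genes and neither FTH1 nor SLC7A11, the antioxidant response element TGACTCAGC was searched on both strands. It stood in the promoters of SLC3A2 and, as its reverse complement GCTGAGTCA, of AIFM2, in capitals here. It was found in 0.689% of the 27305 genes with a promoter. The 7 letters TGACTCA within it are also those of an AP-1 site. The SLC3A2 promoter lies inside the GENCODE span of that gene given below, and the stretch printed for AIFM2 lies inside the span of AIFM2.
AIFM2 promoter, chr10:70132830-70132856, minus strand: agcacgagtGCTGAGTCAcgccccgcc
SLC3A2 promoter, chr11:62881653-62881679, plus strand: gagggtgggTGACTCAGCgtcctcctt
The looser form TGACNNNGC gave the same 2 genes and matched 16.1% of all. Other patterns were searched in the same way. The E-box CACGTG, the cAMP response element TGACGTCA and the forkhead motif TGTTTAC matched 0 of the 8 genes. They matched 8.77%, 2.25% and 4.19% of all. The composite pattern CARE, TGATGNAAN, matched SLC3A2 alone of the 8 and 4.45% of all. A match is a run of letters and was not tested as a site.

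A library held 17715500 to 49134100 estimated counts, and each of the 60 correlated best with another library of its own line. For 47 of them that library was of the same arm. The DTP libraries of H1975 and HCC827, and the short washout libraries of HCC827, all correlated best with one of another arm. Levels are given as CPM, estimated counts scaled to library size with TMM normalisation. The lowest count of any of the 10 genes was 38, for AIFM2 in an HCC827 library. The summed level of 8 markers of leukocytes, endothelium and fibroblasts was 1.22 to 32.7 CPM, with MS4A1 at 0 in all 60 libraries. Of the 5 epithelial markers, KRT8, KRT18 and KRT19 were each above 355 CPM in every library, while EPCAM had means of 575, 456, 194 and 599 CPM in DMSO and 253, 124, 20.2 and 401 in DTPs of PC9, HCC827, H1975 and HCC2935. Those of CDH1 were 334, 1065, 258 and 1444 CPM and 703, 296, 7.36 and 1367, so both were lower in DTPs of HCC827 and, to near 0 for CDH1, of H1975. Of the proliferation genes, MKI67 in H1975 had a mean of 370.1 CPM in short washout and 175 in the libraries labelled long washout, so the means over the lines were also taken without H1975 for the 2 washouts. MKI67 in HCC827, which was kept in, had the same order, with means of 224 (SD 86.7) and 173 (SD 10.2) CPM. The part of the epithelial markers and proliferation genes in the results was not tested. In PC9 long washout, replicates 2 and 3 differed most from each other, and replicate 3 correlated best with a short washout library.

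**Figure D1:**
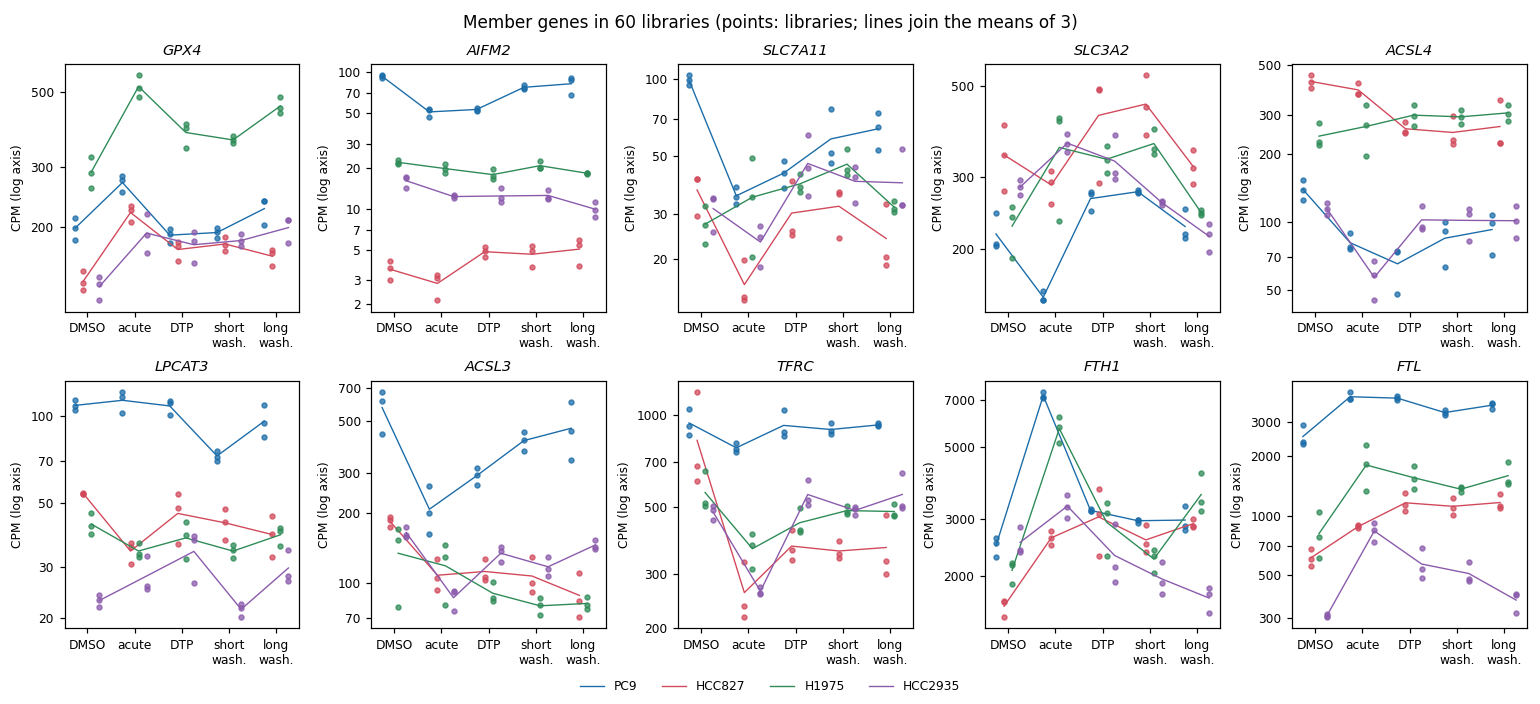
Level of the 10 genes in every library, in CPM on log axes with a range of its own in each panel. Points are libraries, 3 per group, lines join the group means and colours are the 4 lines. GPX4, FTH1 and FTL lie higher in the acute arm than in DMSO in all 4 lines, without overlap of libraries, and TFRC lies lower in the same way. The share of all genes whose libraries separate so was not counted.

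After 24 h of osimertinib, GPX4 and both ferritin subunits, FTH1 and FTL, rose in all 4 lines, and TFRC, the importer of iron, fell in all 4. No other of the 10 genes passed in the same direction in every line. SLC3A2 rose in H1975 and HCC2935 and fell in PC9. Of the 10 genes, 9 were called in PC9, 7 in HCC827, 6 in H1975 and 8 in HCC2935 at an adjusted p under 0.05 (edgeR quasi-likelihood test, adjusted over all genes tested). Among all genes tested, 66.2%, 39.0%, 51.6% and 47.1% were called in these lines, so a called gene was common in each. How many of all genes were called in the same direction in all 4 lines was not counted, here or in later comparisons. Agreement of the 4 lines therefore has no share of all genes beside it. In the mean of the 4 lines 9 of the 10 were called, against 64.4% of all genes, and the median of the 10 log2 fold changes was -0.30 beside 0.10 over all genes. A difference between the 4 lines was called for all 10, against 41.4% of all genes. Leaving out 1 replicate number in all arms ended that call for GPX4, SLC3A2, AIFM2, FTL and ACSL3 (adjusted p between 0.0512 and 0.382), and the call of the mean for LPCAT3 (0.142 to 0.154). The call of the mean for LPCAT3 was also lost with no filter (adjusted p = 0.0732) and with RLE size factors (adjusted p = 0.0962).

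After 21 days, in DTPs, FTL was higher than in DMSO in all 4 lines, and GPX4 and FTH1 in 3 of them. SLC7A11 was lower in PC9 and higher in HCC2935, and ACSL4 was lower in PC9 and HCC827. Calls were made for 7 of the 10 genes in PC9 and for 6, 6 and 6 in HCC827, H1975 and HCC2935, beside 69.2%, 43.4%, 51.7% and 52.8% of all genes tested. The mean of the 4 lines called 8 of 10 against 65.0% of all, with a median of -0.03 beside 0.08, and 7 of 10 differed between lines against 63.9% of all. Both comparisons use the same DMSO libraries, so their values are not independent of each other.

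**Figure D2:**
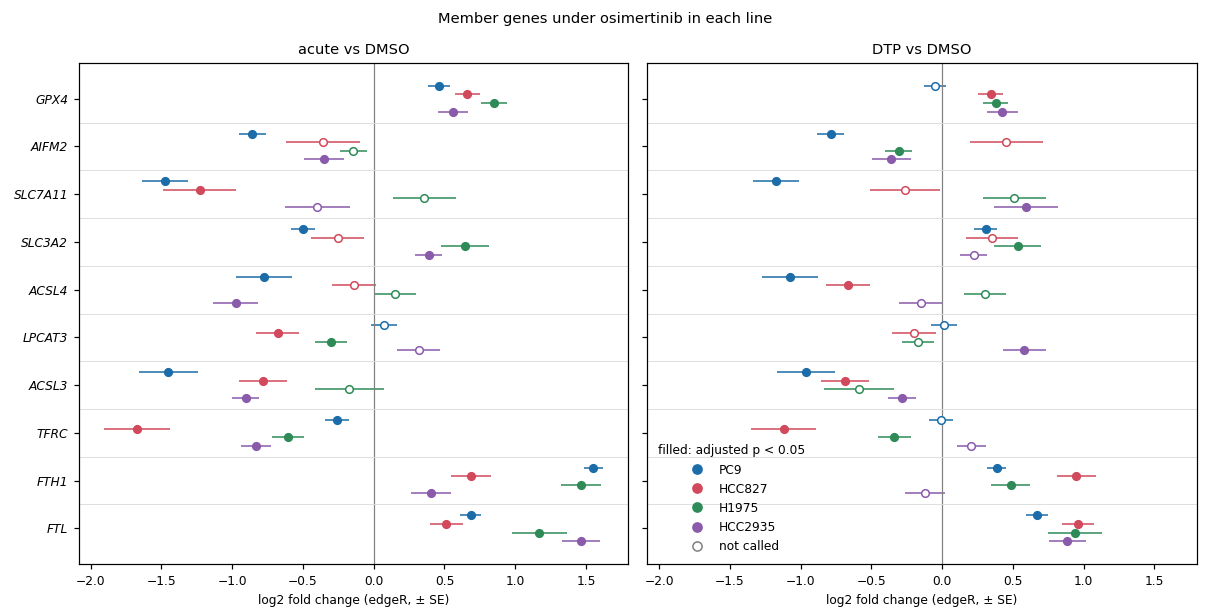
Log2 fold change of the 10 genes against DMSO in each line, after 24 h of osimertinib (left) and in DTPs (right), on 1 scale. Bars are ± 1 SE of the edgeR fit on 3 libraries per arm, filled points have an adjusted p under 0.05; GPX4, FTH1 and FTL lie to the right of 0 in all 4 lines on the left, TFRC to the left.

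GPX4 (chr19:1103926-1106791, plus strand) is the peroxidase that ferroptosis inducers of the RSL3 type block. In H1975, the line with the most GPX4 RNA, it was at 260.1, 321 and 289 CPM in DMSO and 514, 559.9 and 483 CPM in the acute arm. In HCC827 it was at 148, 136 and 129.7 CPM and then 225, 206 and 229.7 CPM. The lowest acute library lay above the highest DMSO library in each of the 4 lines, and how many of all genes separate so was not counted. GPX4 rose 1.80-fold in H1975 (log2 fold change 0.85, SE 0.09, adjusted p = 4.15e-06). The rise was 0.66 on the log2 scale in HCC827, 0.56 in HCC2935 and 0.46 in PC9 (adjusted p = 5.01e-05, 5.24e-04 and 1.11e-04). These sizes differed between lines only narrowly (adjusted p = 0.0487 for the difference), and that call was lost with any 1 replicate number left out (adjusted p between 0.0803 and 0.382).

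In DTPs GPX4 was higher than in DMSO in HCC827, H1975 and HCC2935, by 0.34, 0.38 and 0.43 on the log2 scale (adjusted p = 0.00613, 0.00254 and 0.00344). PC9 stood apart, with 213, 198 and 183 CPM in DMSO, 253, 282 and 275 CPM after 24 h and 191, 179 and 197 CPM in DTPs. Of the DTP libraries of PC9, 2 lay inside the range of DMSO and 1 just below it, and no change was called (log2 fold change -0.05, adjusted p = 0.599). The difference between lines was called (adjusted p = 0.00334), and was lost without replicate 1 (adjusted p = 0.0799). On log2 TPM with limma the PC9 value was 0.20 and called (adjusted p = 0.0143), but on that scale the median of all genes in PC9 DTPs shifted by 0.30, so GPX4 was below the median gene there.

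AIFM2 (chr10:70098223-70132934, minus strand) reduces ubiquinone at the plasma membrane. In DMSO it was at 94.0, 94.9 and 91.5 CPM in PC9, 21.4, 22.5 and 21.6 in H1975, 16.9, 17.03 and 14.1 in HCC2935 and 3.63, 2.98 and 4.13 in HCC827, and no library of a line overlapped with those of the next. After 24 h in PC9 the level was 53.2, 46.6 and 53.8 CPM, and in DTPs 52.3, 55.0 and 52.8 CPM. AIFM2 thus fell in PC9 in both (log2 fold change -0.86, SE 0.09, adjusted p = 2.08e-06 after 24 h, -0.79 with adjusted p = 4.81e-06 in DTPs). It also fell in HCC2935 after 24 h (-0.35, adjusted p = 0.0484) and in DTPs (-0.36, adjusted p = 0.0407), and in H1975 DTPs (-0.31, adjusted p = 0.0145). Of AIFM2, a call was gained for DTP vs DMSO in HCC827 with the fit of all 60 libraries (adjusted p = 0.0166). Of AIFM2, a call was lost for acute vs DMSO in HCC2935 without acute replicate 1 or 2 or 3 or DMSO replicate 1 or 2 (adjusted p between 0.0803 and 0.137), for DTP vs DMSO in H1975 without DTP replicate 1 or 3 (adjusted p between 0.0503 and 0.0644), for DTP vs DMSO in HCC2935 without DMSO replicate 1 or 2 or DTP replicate 2 or 3 (adjusted p between 0.103 and 0.146), for acute vs DMSO in HCC2935 with at least 10 counts in every library or no filter (adjusted p between 0.0579 and 0.0613), for DTP vs DMSO in H1975 with the compared libraries alone (adjusted p = 0.0701) and for DTP vs DMSO in HCC2935 with at least 10 counts in every library or limma on log2 TPM or no filter or the compared libraries alone (adjusted p between 0.0542 and 0.259). HCC827 was not called in either, and the lines differed in both comparisons (adjusted p = 0.00556 and 8.27e-06). H2AFY2 overlaps AIFM2 on the opposite strand.

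SLC7A11 (chr4:138164097-138242349, minus strand) is the cystine-carrying chain of the cystine and glutamate exchanger. PC9 had the most of it, with 94.4, 103 and 98.4 CPM in DMSO, and 32.7, 34.9 and 37.9 CPM after 24 h. HCC827 went from 40.8, 40.9 and 29.4 to 19.7, 13.8 and 14.2 CPM. In both lines the highest acute library lay below the lowest DMSO library. SLC7A11 fell 2.78-fold in PC9 (log2 fold change -1.48, SE 0.16, adjusted p = 2.12e-06) and by 1.23 on the log2 scale in HCC827 (adjusted p = 0.00157). H1975 and HCC2935 were not called after 24 h (adjusted p = 0.195 and 0.166), and the lines differed (adjusted p = 7.65e-05). Of SLC7A11, a call was gained for acute vs DMSO in H1975 without acute replicate 3 (0.62, adjusted p = 0.00589). In HCC2935, where same-numbered libraries varied together in this comparison, a fit of its 6 libraries alone with the replicate block, chosen after seeing the data, called the fall (-0.45, adjusted p = 0.0371).

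In DTPs SLC7A11 was still lower than in DMSO in PC9, at 43.2, 37.8 and 48.1 CPM (log2 fold change -1.17, SE 0.16, adjusted p = 1.68e-05). In HCC2935 it was higher, at 60.6, 35.2 and 45.0 CPM against 34.2, 25.4 and 34.5 CPM (log2 fold change 0.59, SE 0.23, adjusted p = 0.0364). Of SLC7A11, a call was gained for DTP vs DMSO in H1975 without DMSO replicate 2 (0.63, adjusted p = 0.0495) and with the compared libraries alone (adjusted p = 0.0183). The call was lost for DTP vs DMSO in HCC2935 without DMSO replicate 1 or 2 or DTP replicate 1 or 3 (adjusted p between 0.0524 and 0.207). HCC827 and H1975 were not called, and the mean of the 4 lines was -0.10 (adjusted p = 0.495) over lines that differed (adjusted p = 2.58e-05). SLC7A11 overlaps SLC7A11-AS1 on the opposite strand, and no source here says whether strand was used in counting.

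SLC3A2 (chr11:62856102-62888875, plus strand), the heavy chain that carries SLC7A11 to the membrane and also serves amino acid transporters such as SLC7A5, also moved both ways. In PC9 it fell after 24 h, from 245, 206 and 203 to 150.0, 150.4 and 158 CPM (log2 fold change -0.50, SE 0.08, adjusted p = 8.52e-05). In H1975 it rose, from 190.3, 253 and 239 to 417, 411 and 234 CPM (log2 fold change 0.65, SE 0.17, adjusted p = 0.00515), although 1 acute library lay inside the DMSO range. It rose in HCC2935 too (0.39, adjusted p = 0.00331). The lines differed after 24 h (adjusted p = 7.15e-05). In DTPs SLC3A2 was higher in PC9, at 248, 273 and 276 CPM (0.31, adjusted p = 0.00388), and in H1975 (0.53, adjusted p = 0.0156), with a mean over the 4 lines of 0.34 (adjusted p = 1.32e-04). Of SLC3A2, a call was gained for DTP vs DMSO in HCC2935 without DTP replicate 2 (0.29, adjusted p = 0.0283) and with at least 10 counts in every library or limma on log2 TPM (adjusted p between 0.00660 and 0.0314) and for DTP vs DMSO in HCC827 without DTP replicate 2 (0.56, adjusted p = 0.0112). Of SLC3A2, a call was lost for DTP vs DMSO in H1975 without DMSO replicate 1 or DTP replicate 2 (adjusted p between 0.0564 and 0.0823), for acute vs DMSO in H1975 with the compared libraries alone (adjusted p = 0.0661), for acute vs DMSO in HCC2935 with the fit of all 60 libraries (adjusted p = 0.0558) and for DTP vs DMSO in PC9 with the fit of all 60 libraries (adjusted p = 0.102). No difference between lines was called in DTPs (adjusted p = 0.514), which does not show that they moved alike.

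ACSL4 (chrX:109624244-109733403, minus strand) activates arachidonic and adrenic acid and is required for ferroptosis in many cells. In HCC2935 it was at 114, 122 and 107 CPM in DMSO, 67.3, 58.4 and 45.0 after 24 h and 118, 93.6 and 95.3 in DTPs. The fall after 24 h was called (log2 fold change -0.98, SE 0.16, adjusted p = 1.13e-04) and DTPs were not called against DMSO, with 1 library inside the range of DMSO and 2 below it (adjusted p = 0.450). In PC9 it went from 126, 155 and 139 CPM to 75.8, 89.9 and 77.4 and then 74.5, 47.8 and 73.8 CPM, lower at both times (-0.78 with adjusted p = 0.00279, then -1.08 with adjusted p = 2.09e-04). HCC827, the line with the most ACSL4, was not called after 24 h and was lower in DTPs, at 252, 278 and 249 against 395, 419.8 and 448 CPM (log2 fold change -0.67, SE 0.16, adjusted p = 0.00303). H1975 was called in neither. The lines differed in both comparisons (adjusted p = 6.19e-04 and 4.19e-05). Of ACSL4, a call was gained for acute vs DMSO in H1975 without acute replicate 3 (0.32, adjusted p = 0.0497). KCNE5 overlaps ACSL4 on the same strand, so their reads could be shared.

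LPCAT3 (chr12:6976186-7018510, minus strand), the acyltransferase that places polyunsaturated chains in phospholipids, passed the test in fewer lines. It fell after 24 h in HCC827, from 54.0, 54.4 and 53.7 to 30.7, 35.1 and 36.4 CPM (log2 fold change -0.68, SE 0.15, adjusted p = 0.00298), and in H1975 (-0.30, adjusted p = 0.0357). In DTPs it was higher in HCC2935, at 26.3, 38.3 and 37.4 against 21.8, 23.0 and 24.0 CPM (log2 fold change 0.58, SE 0.15, adjusted p = 0.00417), and was not called in the other lines. Of LPCAT3, a call was gained for DTP vs DMSO in PC9 with limma on log2 TPM (adjusted p = 0.00365). Of LPCAT3, a call was lost for acute vs DMSO in H1975 without acute replicate 1 or 2 or DMSO replicate 1 or 3 (adjusted p between 0.0665 and 0.132). The difference between lines was called in both (adjusted p = 2.93e-04 and 9.82e-04). LPCAT3 overlaps EMG1 and C1S on the opposite strand.

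ACSL3 (chr2:222860934-222944639, plus strand), whose monounsaturated products displace peroxidisable lipids, fell in PC9, HCC827 and HCC2935 after 24 h. PC9 held the most, 441, 671 and 609.7 CPM in DMSO, and 201, 262 and 162 CPM after 24 h, a fall of 2.74-fold (log2 fold change -1.45, SE 0.21, adjusted p = 2.46e-05). HCC2935 and HCC827 fell by 0.91 and 0.79 on the log2 scale (adjusted p = 2.34e-06 and 0.00209), while H1975 was not called (adjusted p = 0.576). In DTPs ACSL3 was lower than in DMSO in PC9 (-0.96, adjusted p = 8.01e-04), in HCC827 (-0.69, adjusted p = 0.00438) and in HCC2935 (-0.28, adjusted p = 0.0211). Of ACSL3, a call was gained for DTP vs DMSO in H1975 without DMSO replicate 2 (-0.87, adjusted p = 0.00154) and with the fit of all 60 libraries or DESeq2 or no filter or RLE size factors (adjusted p between 0.0174 and 0.0497). Of ACSL3, a call was lost for DTP vs DMSO in HCC2935 without DMSO replicate 1 or DTP replicate 1 (adjusted p between 0.0822 and 0.0941) and for DTP vs DMSO in HCC2935 with the fit of all 60 libraries or limma on log2 TPM (adjusted p between 0.216 and 0.232). In H1975 DMSO 1 library stood at 78.2 CPM beside 152 and 172 CPM in the others, and H1975 DTPs were not called (-0.59, adjusted p = 0.0580).

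TFRC (chr3:196027183-196082189, minus strand), the receptor that takes up iron-loaded transferrin, fell in all 4 lines after 24 h. The change was largest in HCC827, from 681, 1195 and 608 to 217, 236 and 329.8 CPM, 3.19-fold (log2 fold change -1.67, SE 0.23, adjusted p = 6.78e-05). The DMSO libraries of HCC827 spread widely for this gene, and the acute ones all lay below them. HCC2935 went from 486, 452 and 503 to 273, 261 and 258 CPM (-0.83, adjusted p = 9.21e-06), H1975 changed by -0.60 (adjusted p = 5.00e-04) and PC9 by -0.26 (adjusted p = 0.0144). In DTPs TFRC remained lower in HCC827, at 360.2, 419.8 and 334 CPM (log2 fold change -1.12, SE 0.23, adjusted p = 0.00123), and in H1975 (-0.34, adjusted p = 0.0224). PC9 and HCC2935 DTPs were not called against DMSO. The lines differed at both times (adjusted p = 1.89e-05 and 7.58e-06). Of TFRC, a call was gained for DTP vs DMSO in HCC2935 with limma on log2 TPM (adjusted p = 0.0158). Of TFRC, a call was lost for acute vs DMSO in PC9 without DMSO replicate 3 (adjusted p = 0.0869), for DTP vs DMSO in H1975 without DMSO replicate 2 or DTP replicate 1 or 3 (adjusted p between 0.0809 and 0.107), for acute vs DMSO in PC9 with the fit of all 60 libraries (adjusted p = 0.141) and for DTP vs DMSO in H1975 with the fit of all 60 libraries or the compared libraries alone (adjusted p between 0.0663 and 0.0834).

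FTH1 (chr11:61959718-61967660, minus strand), the ferritin chain with ferroxidase activity, gave the largest rise of the 10 genes after 24 h. PC9 went from 2625, 2531 and 2281 to 7147, 7412 and 7085 CPM, 2.93-fold (log2 fold change 1.55, SE 0.07, adjusted p = 4.43e-09). H1975 went from 1895, 2155 and 2194 to 5773, 6185 and 5164 CPM (log2 fold change 1.46, SE 0.14, adjusted p = 1.93e-06). The rise was less in HCC827 (0.69, adjusted p = 0.00127) and HCC2935 (0.41, adjusted p = 0.0252), and the difference between lines was called (adjusted p = 1.06e-06). In DTPs FTH1 was at 3184, 3166 and 3216 CPM in PC9, far below the acute libraries and above those of DMSO (0.38, adjusted p = 1.74e-04). It was higher than in DMSO in HCC827 (0.95, adjusted p = 9.01e-05) and H1975 (0.48, adjusted p = 0.00814), and HCC2935 was not called (adjusted p = 0.491). Of FTH1, a call was gained for DTP vs DMSO in HCC2935 without DTP replicate 1 (-0.31, adjusted p = 0.0494). Of FTH1, a call was lost for acute vs DMSO in HCC2935 without acute replicate 1 or 3 or DMSO replicate 1 or 2 (adjusted p between 0.0529 and 0.0924) and for acute vs DMSO in HCC2935 with limma on log2 TPM (adjusted p = 0.0690).

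FTL (chr19:48965301-48966878, plus strand), the light ferritin chain, was the gene that rose in all 4 lines at both times. HCC2935 had the least, 309, 315 and 305 CPM in DMSO, and 920.5, 736 and 847 CPM after 24 h, 2.76-fold more (log2 fold change 1.46, SE 0.14, adjusted p = 5.03e-07). H1975 rose by 1.17, PC9 by 0.69 and HCC827 by 0.51 on the log2 scale (adjusted p = 1.66e-04, 2.32e-06 and 0.00256). In DTPs the log2 fold changes against DMSO lay close together, at 0.67 in PC9, 0.96 in HCC827, 0.94 in H1975 and 0.89 in HCC2935, all called (adjusted p between 3.11e-06 and 9.25e-04). The difference between lines was called after 24 h (adjusted p = 0.00102) and not in DTPs (adjusted p = 0.506). GENCODE names 25 pseudogenes of FTH1 and 16 of FTL, whose reads could be split with theirs, and BEST1 overlaps FTH1 on the opposite strand.

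DTPs were also set against the acute arm, which was of parental cells and not an earlier time of the same cultures. FTH1 was lower in DTPs than after 24 h in PC9 (-1.17, adjusted p = 1.47e-07), H1975 (-0.98, adjusted p = 1.42e-04) and HCC2935 (-0.53, adjusted p = 0.00593), and was not called in HCC827. GPX4 was lower in PC9 (-0.51, adjusted p = 2.20e-04), H1975 (-0.47, adjusted p = 0.00115) and HCC827 (-0.32, adjusted p = 0.0141). SLC7A11 was higher in HCC2935 (0.99, adjusted p = 0.00226) and HCC827 (0.97, adjusted p = 0.0109), and SLC3A2 in PC9 (0.81, adjusted p = 8.76e-06) and HCC827 (0.61, adjusted p = 0.0248). TFRC was higher in HCC2935 (1.04, adjusted p = 1.08e-06), where the DTP libraries held 508, 614 and 525 CPM, and in PC9 (0.25, adjusted p = 0.0323). ACSL4 went both ways, higher in HCC2935 (0.83, adjusted p = 4.94e-04) and lower in HCC827 (-0.53, adjusted p = 0.0191), as did FTL, lower in HCC2935 (-0.58, adjusted p = 0.00219) and higher in HCC827 (0.45, adjusted p = 0.00919). ACSL3 was higher in HCC2935 (0.62, adjusted p = 8.84e-05), and AIFM2 and LPCAT3 in HCC827 (0.81, adjusted p = 0.0283 and 0.48, adjusted p = 0.0296).

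In all, 4, 7, 2 and 6 of the 10 genes were called in PC9, HCC827, H1975 and HCC2935, beside 33.9%, 29.4%, 37.2% and 44.7% of all genes tested. The mean of the 4 lines called 7 against 47.3% of all, and 8 differed between lines against 54.3% of all. Leaving out 1 replicate number ended the call of the mean for SLC3A2, AIFM2 and LPCAT3 (adjusted p between 0.0571 and 0.302) and of the difference between lines for GPX4, AIFM2, TFRC, FTL and ACSL3 (0.0505 to 0.413). Each of the 7 calls in HCC827 was lost when some 1 library was left out. For GPX4 the call was lost in HCC827 without acute replicate 1 or DTP replicate 2 (adjusted p between 0.0520 and 0.0629). For SLC7A11 the call was lost in HCC827 without acute replicate 2 or 3 or DTP replicate 3 (adjusted p between 0.0573 and 0.0894). For SLC3A2 the call was lost in HCC827 without acute replicate 2 or 3 or DTP replicate 1 or 3 (adjusted p between 0.0818 and 0.156) and in HCC827 with limma on log2 TPM or the compared libraries alone (adjusted p between 0.0653 and 0.0660). For ACSL4 the call was lost in HCC827 without acute replicate 2 (adjusted p = 0.0549). For AIFM2 the call was lost in HCC827 without acute replicate 1 or 2 or 3 or DTP replicate 1 or 2 or 3 (adjusted p between 0.0505 and 0.116) and in HCC827 with limma on log2 TPM or no filter or the compared libraries alone (adjusted p between 0.0511 and 0.0640). For LPCAT3 the call was lost in HCC827 without acute replicate 1 or 2 or 3 or DTP replicate 2 or 3 (adjusted p between 0.0649 and 0.202) and in HCC827 with no filter or the compared libraries alone (adjusted p between 0.0535 and 0.0662). For TFRC the call was lost in PC9 without acute replicate 1 or 2 or 3 or DTP replicate 1 (adjusted p between 0.0520 and 0.175) and in PC9 with the fit of all 60 libraries (adjusted p = 0.267). For FTH1 the call was lost in HCC2935 with limma on log2 TPM (adjusted p = 0.0763). For FTL the call was lost in HCC827 without DTP replicate 3 (adjusted p = 0.0741). For AIFM2 a call was gained in PC9 with limma on log2 TPM (adjusted p = 0.00773). On that scale the median log2 fold change of all genes in PC9 was 0.28. For SLC7A11 a call was gained in PC9 with limma on log2 TPM or the compared libraries alone (adjusted p between 0.0108 and 0.0438). For SLC3A2 a call was gained in H1975 without acute replicate 3 (-0.33, adjusted p = 0.0403) and in HCC2935 without DTP replicate 1 (-0.28, adjusted p = 0.0199). For LPCAT3 a call was gained in HCC2935 without DTP replicate 1 (0.42, adjusted p = 0.0269) and with limma on log2 TPM (adjusted p = 0.0471). For ACSL3 a call was gained in H1975 without acute replicate 1 (-0.64, adjusted p = 0.0421) and in PC9 without acute replicate 2 (0.68, adjusted p = 0.0307) and with DESeq2 or limma on log2 TPM or the compared libraries alone (adjusted p between 0.00346 and 0.0385). For TFRC a call was gained in H1975 without acute replicate 1 (0.35, adjusted p = 0.0384) and in HCC827 with the fit of all 60 libraries or the compared libraries alone (adjusted p between 0.0105 and 0.0478). For FTH1 a call was gained in HCC827 without DTP replicate 1 (0.43, adjusted p = 0.00898). The acute libraries are those of the comparison with DMSO, and the DTP libraries those of the other comparisons.

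Withdrawal of the drug for 24 h moved few of the genes. In PC9 AIFM2 rose from 52.3, 55.0 and 52.8 CPM in DTPs to 80.4, 76.9 and 75.6 CPM in short washout (log2 fold change 0.54, SE 0.09, adjusted p = 0.00765), which took it toward its level in DMSO. LPCAT3 fell in PC9, from 112, 113 and 101 to 70.3, 76.0 and 72.5 CPM (log2 fold change -0.58, SE 0.09, adjusted p = 0.00544), and in HCC2935, from 26.3, 38.3 and 37.4 to 22.4, 21.7 and 20.1 CPM (log2 fold change -0.67, SE 0.15, adjusted p = 0.0252). Of LPCAT3, a call was lost for short washout vs DTP in HCC2935 without DTP replicate 2 or 3 or short washout replicate 1 or 2 or 3 (adjusted p between 0.0713 and 0.147) and for short washout vs DTP in HCC2935 with limma on log2 TPM (adjusted p = 0.0505). GPX4 was called in no line. Over all genes tested, 5.92% were called in PC9, 0% in HCC827, 0.0585% in H1975 and 3.14% in HCC2935. None of the 10 genes was called by edgeR in HCC827 or H1975, where 0 and 2 of them had an unadjusted p under 0.05. HCC827 had 0 calls among all genes by edgeR, DESeq2 and limma, and 291 of 14665 genes at an unadjusted p under 0.05. In H1975, where same-numbered libraries varied together, the replicate block took the calls among all genes from 9 to 56 and none of them was one of the 10. A fit of the 6 H1975 libraries alone with that block, chosen after seeing the data, called FTH1 (-0.36, adjusted p = 0.00912). For SLC3A2 a call was gained in HCC2935 with DESeq2 (adjusted p = 0.0164). For ACSL3 a call was gained in PC9 with the compared libraries alone (adjusted p = 0.00466). For FTH1 a call was gained in H1975 without DTP replicate 2 (-0.51, adjusted p = 0.0376) and in PC9 with the compared libraries alone (adjusted p = 0.0447). For FTL a call was gained in PC9 with DESeq2 or the compared libraries alone (adjusted p between 0.00288 and 0.0324).

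In the mean of the 4 lines LPCAT3 (-0.38, adjusted p = 1.12e-04) and FTH1 (-0.24, adjusted p = 0.0113) were lower in short washout than in DTPs, 2 of 10 genes against 12.6% of all. FTH1 was no longer called without H1975 (adjusted p = 0.104), without replicate 1 (adjusted p = 0.171) or without replicate 3 (adjusted p = 0.0667), and LPCAT3 was not without replicate 2 (adjusted p = 0.0503). No difference between lines was called by edgeR for any of the 10, with 2 at an unadjusted p under 0.05, against 0.0121% of all genes called.

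After the long washout several of the genes differed from their level in DMSO. Some of these had not been called in DTPs, such as GPX4 in PC9 and FTH1 in HCC2935. GPX4 was higher in all 4 lines: in H1975 the libraries labelled long washout held 447, 434 and 483 CPM (0.64, adjusted p = 3.61e-05), and in HCC2935 the level was 179, 209 and 209 CPM against 142, 136 and 121 CPM (0.59, adjusted p = 3.62e-04). The rises of HCC827 (0.28, adjusted p = 0.0214) and PC9 (0.20, adjusted p = 0.0469) were small. Of GPX4, a call was lost for long washout vs DMSO in HCC827 without DMSO replicate 2 or 3 or long washout replicate 2 or 3 (adjusted p between 0.0609 and 0.0939), for long washout vs DMSO in PC9 without DMSO replicate 2 or 3 or long washout replicate 1 or 2 (adjusted p between 0.101 and 0.179), for long washout vs DMSO in HCC827 with no filter or the compared libraries alone (adjusted p between 0.0530 and 0.0666) and for long washout vs DMSO in PC9 with the fit of all 60 libraries or no filter or the compared libraries alone or RLE size factors (adjusted p between 0.0572 and 0.135). FTL was higher in H1975 (0.98, adjusted p = 6.31e-04), HCC827 (0.96, adjusted p = 1.94e-05) and PC9 (0.54, adjusted p = 9.54e-05). In HCC2935, at 395, 399.9 and 318 CPM, it was not called (adjusted p = 0.105). FTH1 was higher in HCC827, H1975 and PC9 (0.88, adjusted p = 1.94e-04, then 0.77, adjusted p = 2.70e-04, then 0.27, adjusted p = 0.00514) and lower in HCC2935 (-0.56, adjusted p = 0.00426), and the lines differed (adjusted p = 2.66e-08).

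TFRC was lower in HCC827 after the long washout too, at 331, 300.1 and 471 CPM (-1.14, adjusted p = 0.00120), and was not called elsewhere. SLC7A11 stayed lower in PC9, at 65.1, 73.9 and 52.8 CPM (-0.62, adjusted p = 0.00645), and SLC3A2 was lower in HCC2935 (-0.38, adjusted p = 0.00409). Of the lipid genes, ACSL4 was lower in HCC827 (-0.63, adjusted p = 0.00443) and PC9 (-0.58, adjusted p = 0.0249), ACSL3 in HCC827 (-1.03, adjusted p = 2.70e-04) and H1975 (-0.73, adjusted p = 0.0213), and LPCAT3 lower in HCC827 (-0.44, adjusted p = 0.0303) and higher in HCC2935 (0.39, adjusted p = 0.0470). AIFM2 was lower in HCC2935 (-0.68, adjusted p = 0.00106) and H1975 (-0.27, adjusted p = 0.0264). For AIFM2 the call was lost in H1975 without DMSO replicate 2 or 3 or long washout replicate 1 or 2 or 3 (adjusted p between 0.050004 and 0.0779) and in H1975 with the fit of all 60 libraries (adjusted p = 0.0720). For ACSL4 the call was lost in PC9 without DMSO replicate 2 or 3 or long washout replicate 3 (adjusted p between 0.0589 and 0.102) and in PC9 with limma on log2 TPM (adjusted p = 0.0718). For LPCAT3 the call was lost in HCC2935 without DMSO replicate 1 or 2 or 3 or long washout replicate 1 or 2 (adjusted p between 0.0654 and 0.210), in HCC827 without DMSO replicate 1 or 2 or long washout replicate 2 or 3 (adjusted p between 0.0592 and 0.125) and in HCC2935 with DESeq2 or no filter or RLE size factors (adjusted p between 0.0510 and 0.0599). For ACSL3 the call was lost in H1975 without DMSO replicate 1 or 3 or long washout replicate 1 or 3 (adjusted p between 0.0565 and 0.107). For FTH1 the call was lost in PC9 with the fit of all 60 libraries or the compared libraries alone (adjusted p between 0.0615 and 0.114). For AIFM2 a call was gained in HCC827 with the fit of all 60 libraries (adjusted p = 0.00619) and in PC9 without long washout replicate 2 (-0.25, adjusted p = 0.0458). For SLC7A11 a call was gained in HCC827 without DMSO replicate 3 (-0.75, adjusted p = 0.0411) and without long washout replicate 3 (-0.88, adjusted p = 0.0144) and with the fit of all 60 libraries or DESeq2 (adjusted p between 0.0342 and 0.0465). For ACSL4 a call was gained in H1975 without DMSO replicate 2 (0.43, adjusted p = 0.0376) and with the compared libraries alone (adjusted p = 0.0294). For LPCAT3 a call was gained in PC9 without long washout replicate 2 (-0.27, adjusted p = 0.0190). For ACSL3 a call was gained in PC9 without long washout replicate 2 (-0.53, adjusted p = 0.0410). For TFRC a call was gained in H1975 with no filter (adjusted p = 0.0432) and in HCC2935 with limma on log2 TPM (adjusted p = 0.0444). For FTL a call was gained in HCC2935 without long washout replicate 3 (0.38, adjusted p = 0.0442) and with limma on log2 TPM (adjusted p = 0.0440).

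Calls numbered 5, 7, 5 and 5 of 10 in PC9, HCC827, H1975 and HCC2935, beside 44.9%, 42.0%, 53.3% and 43.3% of all genes. In the mean of the 4 lines they were 7 of 10 beside 57.5%, and 9 of 10 differed between lines beside 57.1%. Leaving out 1 replicate number ended the call of the mean for ACSL4, AIFM2 and TFRC (adjusted p between 0.124 and 0.178) and of the difference between lines for GPX4, SLC7A11, ACSL4, FTL and ACSL3 (0.0528 to 0.251). Without H1975 the call of the mean was lost for AIFM2 (adjusted p = 0.162), and that of the difference between lines for ACSL4 (adjusted p = 0.207). Washout times differ between the lines, so line and time cannot be told apart here, and the summed level of 8 proliferation genes in long washout was 1637 CPM in PC9 and 1340.1 in HCC2935 beside 996 in HCC827 and 796 in H1975. Its part in these results was not tested.

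**Figure D3:**
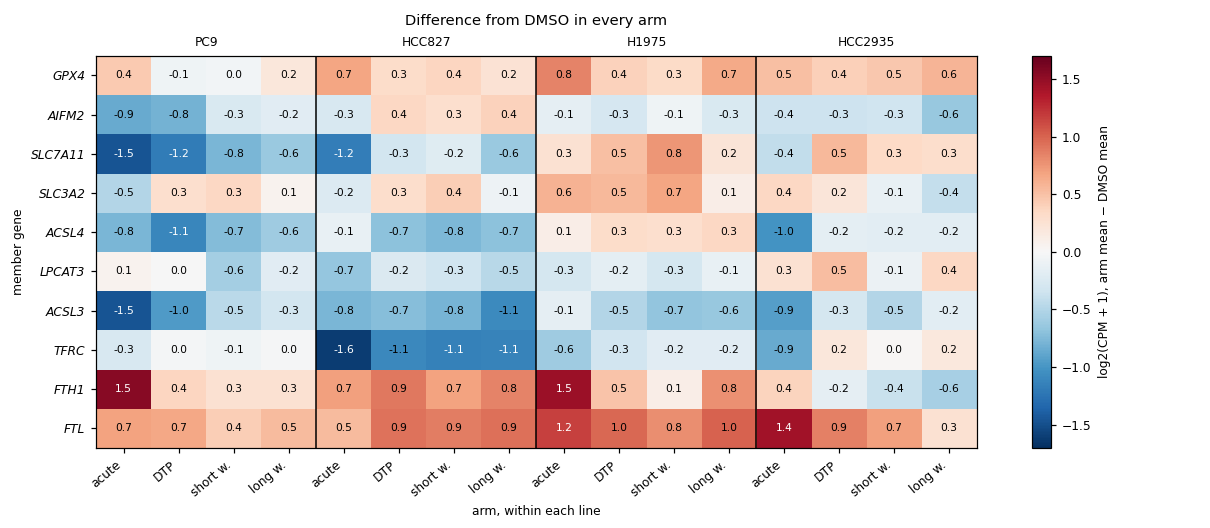
Mean log2(CPM + 1) of each arm minus the mean of DMSO in the same line, for the 10 genes (rows) and the 4 other arms of each line (columns), red for higher and blue for lower. FTL is above DMSO in all 16 columns, and the deepest blue is TFRC in the acute arm of HCC827 (-1.62).

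The other genes of the pathway were followed in 6 lists, 86 genes of which 83 were tested, in the mean of the 4 lines, where 64.4% of all genes were called after 24 h and 65.0% in DTPs. Over the 83, 30 rose and 31 fell after 24 h, and 18 rose and 41 fell in DTPs. The list of radical-trapping lipids holds enzymes of coenzyme Q10, tetrahydrobiopterin, vitamin K and sterols, and also MBOAT1. It moved down: 1 rose and 10 fell of 14 after 24 h and 0 rose and 13 fell of 14 in DTPs, with medians of -0.45 and -0.54 beside 0.10 and 0.08 over all genes. PDSS1, which builds the tail of coenzyme Q10, changed by -2.02 and -1.49. DHODH, a mitochondrial enzyme that reduces ubiquinone, changed by -0.90 and -0.95. Both fell in each of the 4 lines at both times, and PDSS1 had the lowest value of the list at both. MBOAT1, a phospholipid acyltransferase, rose after 24 h (0.72), with 2.48 in PC9 and 0.28, -0.09 and 0.26 in HCC827, H1975 and HCC2935. DHODH, which makes pyrimidines, serves dividing cells too, and the summed level of the proliferation genes was 2117 to 2909 CPM in DMSO over the lines and 454 to 645 CPM after 24 h. Its part in the result was not tested.

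Of the list of cystine uptake and glutathione, 3 rose and 2 fell of 12 after 24 h and 3 rose and 5 fell of 12 in DTPs (medians -0.08 and -0.14). GCLM, the modifier subunit of the enzyme that starts glutathione synthesis, fell in all 4 lines at both times, with means of -0.96 and -0.98. SLC1A5 fell after 24 h (-0.23), and GLS2 and GGT1 in DTPs (-0.77 and -0.56). CTH, which makes cysteine from cystathionine, rose after 24 h (0.90) and in DTPs (0.25), CBS and ATF4 rose after 24 h (0.26 and 0.19), and CHAC1, which degrades glutathione, and the exporter ABCC1 rose in DTPs (0.76 and 0.24). Single lines went against the mean for SLC1A5 after 24 h (0.0631 in H1975 and 0.42 in HCC2935), CBS after 24 h (-0.18 in PC9), ATF4 after 24 h (-0.0472 in PC9), GLS2 in DTPs (0.13 in HCC827), CTH in DTPs (-0.54 in HCC827 and -0.58 in HCC2935), CHAC1 in DTPs (-0.87 in HCC827) and ABCC1 in DTPs (-0.38 in PC9).

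Of the selenoprotein list, on which GPX4 depends, 5 rose and 2 fell of 10 after 24 h and 3 rose and 5 fell of 10 in DTPs (medians 0.10 and -0.02). SELENOP, the secreted carrier of selenium, changed by 4.33 after 24 h and 4.67 in DTPs, from means of 0.0302 to 0.425 CPM in DMSO, so it started near 0. LRP8, a receptor that takes up SELENOP, fell in all 4 lines at both times (-1.79 and -1.46). SEPSECS, which makes the selenocysteine tRNA, rose at both (0.67 and 0.30), GPX2 rose after 24 h (1.55) and TXNRD1 in DTPs (0.36). SEPHS2 fell after 24 h (-0.12), and EEFSEC, the factor that brings selenocysteine to the ribosome, and TRNAU1AP fell in DTPs (-0.50 and -0.30). The sign of the mean was not that of every line for SEPHS2 after 24 h (0.22 in HCC2935) and SEPSECS in DTPs (-0.46 in HCC827).

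Of the iron list, 6 rose and 8 fell of 17 after 24 h and 2 rose and 8 fell of 17 in DTPs (medians 0.02 and -0.13). SLC40A1, ferroportin, the exporter of iron, rose at both times (2.02 and 1.88). In HCC2935 its means were 50.5 CPM in DMSO, 286 after 24 h and 321 in DTPs, while H1975 DTPs held 0.583 CPM. It too has an IRE match in its 5′ UTR by the search above, and TF has one in its 3′ UTR. HFE rose after 24 h (0.74), and TF rose at both (1.93 and 1.89) without passing a mean of 1.23 CPM in any group. HMOX2, a heme oxygenase that frees iron, fell in all 4 lines at both (-1.14 and -1.03). The importer SLC39A14 (-0.91) and ACO1, an iron regulatory protein (-0.57), fell after 24 h, and the iron chaperones PCBP1 and PCBP2 in DTPs (-0.67 and -0.42). Lines of the other sign were found for HFE after 24 h (-0.14 in HCC827), SLC40A1 in DTPs (-1.12 in H1975) and PCBP2 in DTPs (0.0664 in HCC827).

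Of the list of polyunsaturated lipid supply and peroxidation, 8 rose and 6 fell of 16 after 24 h and 5 rose and 7 fell of 16 in DTPs (medians 0.15 and -0.05). SCD, which makes monounsaturated fatty acids, the substrates of ACSL3, fell at both times (-0.95 and -2.08), and so did the desaturase FADS1 (-0.69 and -0.45) and ALOXE3 (-0.81 and -1.06). PLA2G6, a phospholipase, rose in all 4 lines after 24 h (1.49). The lipoxygenase ALOX15 rose at both (1.86 and 1.14) and ALOX12B after 24 h (1.76), the latter at means of at most 0.356 CPM. CYB5R1, an oxidoreductase that can feed lipid peroxidation, rose in all 4 lines in DTPs (0.71), and AGPAT3 rose in their mean (0.45) but with -0.97 in PC9 and -0.0256 in HCC2935. Of the regulators, 7 rose and 3 fell of 14 after 24 h and 5 rose and 3 fell of 14 in DTPs (medians 0.10 and 0.02). SAT1 and BACH1 rose at both (1.27 and 0.59, then 0.44 and 0.55). WWTR1, the YAP partner TAZ, and OTUB1, which stabilises SLC7A11 protein, fell at both (-0.78 and -0.12, then -0.63 and -0.33), MDM2 fell after 24 h (-0.22) and HSPA5 in DTPs (-0.15). In these lists the lines of the other sign were those of ALOXE3 after 24 h (0.73 in PC9), ALOXE3 in DTPs (0.13 in HCC2935), SAT1 after 24 h (-0.0365 in HCC2935), SAT1 in DTPs (-1.41 in HCC2935), OTUB1 after 24 h (0.0540 in PC9), MDM2 after 24 h (0.30 in H1975) and HSPA5 in DTPs (0.46 in H1975).

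**Figure D4:**
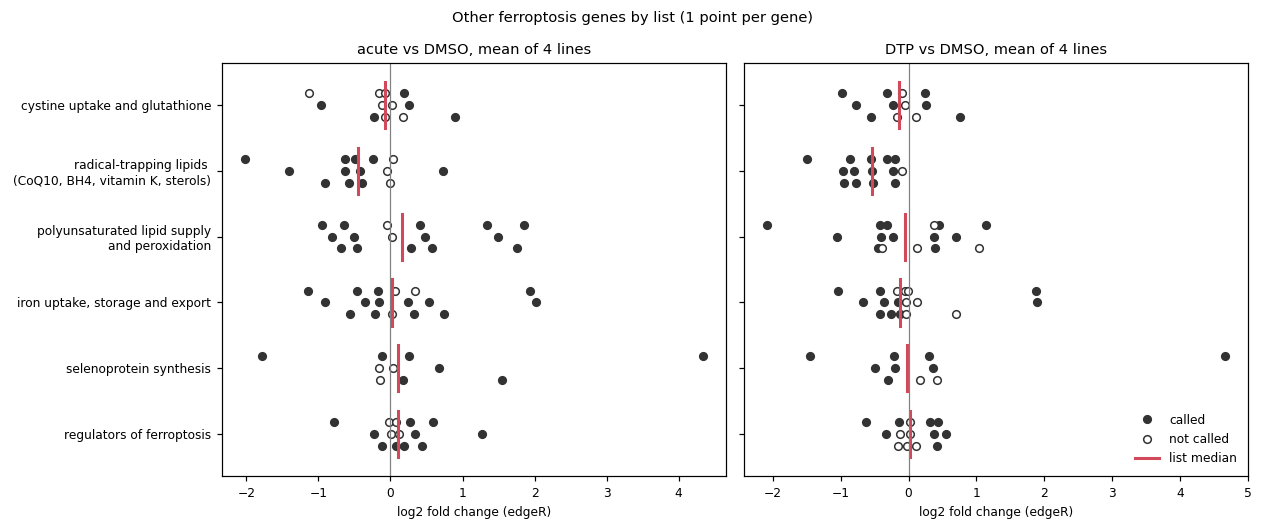
Log2 fold change against DMSO, mean of the 4 lines, of the 83 other pathway genes tested, after 24 h (left) and in DTPs (right), by list. Each point is a gene, filled where the adjusted p is under 0.05, and the red line is the list's median, which for the radical-trapping lipids is -0.45 on the left and -0.54 on the right.

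In the washouts 10 of the 83 rose and 5 fell between DTPs and short washout, beside 12.6% of all genes called, and 15 of the 83 rose and 36 fell between DMSO and long washout, beside 57.5%. The radical-trapping lipids were the list with the lowest median in long washout (-0.58, beside 0.04 over all genes), with 0 rose and 13 fell of 14.

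The course over the arms was also compared between genes, as Pearson's r over 20 group means of log2(CPM + 1), after the mean of the 5 arms of a line had been taken off. The points share lines and libraries, so r is a description. Nearest to GPX4 were REPS2 (0.88), NDRG4 (0.85) and DNAL4 (0.85). FTH1 had GTF2IRD1 (0.91) and ATP2A3 (0.90) among its nearest, and FTL was nearest to RNASE4 (0.96), ZKSCAN4 (0.94) and HDAC6 (0.94). For SLC7A11 they were GARS1 (0.94), FBXL5 (0.93) and XPOT (0.87), of which GARS1 is a tRNA synthetase and FBXL5 marks the iron regulatory protein IREB2 for degradation. TFRC was nearest to GSTCD (0.88) and SLC31A1 (0.86) (beside a read-through locus, DNAJC25-GNG10, at 0.86), where SLC31A1 is the importer of copper. ACSL3 was nearest to FAM210A (0.93), UBE3C (0.90) and FAM91A1 (0.89), ACSL4 to ARHGAP10 (0.89), IGF2BP1 (0.86) and YBX1 (0.86), AIFM2 to FAM126A (0.88), POLR3F (0.88) and SLC27A4 (0.86) and SLC3A2 to ZNF442 (0.84), SLC16A14 (0.83) and C7orf50 (0.82). LPCAT3 had no close match, with ATG4C (0.76), ABCA1 (0.71) and ECI2 (0.66). Among the 10, GPX4 went with FTH1 (0.64) and FTL (0.61), FTH1 with FTL (0.66) and ACSL4 with ACSL3 (0.62). TFRC ran against FTH1 (-0.65) and FTL (-0.65), FTL against ACSL3 (-0.73) and ACSL4 (-0.64), and FTH1 against ACSL3 (-0.60). The partners SLC7A11 and SLC3A2 were at 0.32.

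Per length, as TPM, the ferritins were the most abundant of the 10 RNAs. In DMSO FTH1 was at 4913 ± 346 TPM in PC9 and 3583 ± 244 in HCC827 (mean ± SD, n = 3), and FTL at 3964 ± 489 and 1074 ± 126. GPX4 was at 636 ± 77.2 TPM in H1975 and at 362 ± 26.3 in PC9, 331 ± 16.3 in HCC2935 and 283 ± 22.9 in HCC827. SLC7A11 was low in each line, from 11.6 ± 0.526 TPM in PC9 to 3.87 ± 0.726 in H1975, while its partner SLC3A2 was at 151 ± 15.7 and 189 ± 29.3. AIFM2 ranged from 34.0 ± 0.642 TPM in PC9 to 1.46 ± 0.232 in HCC827, and in every library GPX4 had more TPM than AIFM2.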

How the data were processed

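RNA was sequenced from TruSeq mRNA libraries as 150 bp paired reads. For each gene symbol the authors deposited estimated counts, not normalised between libraries. As a further table they deposited log2 TPM, to which 0.01 had been added before the log. The submitters' processing notes name HISAT2 2.1.0, Salmon 0.8.2 and hg38, while the annotation and how transcripts were joined to genes are not given in the sources used here. TPM summed to 80.6 to 89.1% of a full library over the genes of the table, and TPM was used for levels between genes.

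The estimated counts, rounded to whole numbers, were tested in edgeR 4.0.16 under R 4.3.3. The 15 libraries of a line were fitted together without a block (filterByExpr, TMM, quasi-likelihood F-test), with Benjamini-Hochberg adjustment over all genes tested and calls at an adjusted p under 0.05. The mean of the 4 lines and the difference between lines came from 1 fit of the 60 libraries. The authors' methods state no model for these libraries. Groups came from the labels, which give biological triplicates with numbers that recur in each arm. Deviations of same-numbered libraries from their group means correlated at over 0.1 in all 3 pairs in 3 of 20 comparisons (r = 0.10 to 0.66): acute vs DMSO in HCC2935 and short washout vs DTP in HCC827 and H1975. Replicates differed from each other 8.97 to 138 times as much as counting error alone gives (chi-square over its degrees of freedom), so none was a copy. On simulated data, with 200 genes changed 2-fold, DTP vs DMSO recovered 61.0 to 74.0% of them in the 4 lines, with 1.59 to 5.13% of calls false. The test of a difference between lines, simulated for DTP vs DMSO with 686 of 13484 genes differing, recovered 67.3%, with 8.90% of calls false. That simulated fit held the DTP and DMSO libraries alone, not all 60. In both simulations far fewer genes changed than were called in the data, so these rates may not hold for the tests reported. The median log2 fold change of all genes in a line stayed within 0.1 under TMM and RLE scaling and reached 0.30 on log2 TPM. Fold changes from limma on log2 TPM include this shift.

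The 10 genes and the lists were chosen with earlier results of these data known. Named were all 10 genes, of each list the 3 highest and 3 lowest called after 24 h and in DTPs, and for each of the 10 the 3 genes of highest correlation among 11103 with an SD of at least 0.2. Of the genes this rule named, 3 are not reported here. Alternatives were no filter, RLE size factors, a minimum of 10 counts in each library, a replicate block, each comparison's own libraries, limma 3.58.1 on log2 TPM, DESeq2 1.42.0, all 60 libraries for a single line, a threshold of 0.01, each library left out in turn and, chosen after seeing the data, the block on a comparison's own libraries and the washouts without H1975. Gene positions are those of GENCODE release 29 (GRCh38), and promoters those of RefSeq. Figures were made with Python 3.11.15 and matplotlib 3.10.9.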

Additional observations from a re-analysis of the deposited data

Results flagged for a closer look

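Changes that differed between the 4 lines are listed here with the edgeR adjusted p of the difference itself, tested as line by arm in the fit of all 60 libraries, and with the adjusted p where leaving out a replicate number ended the call. Between 24 h of osimertinib and DMSO all 10 genes differed: FTH1 (1.06e-06), TFRC (1.89e-05), SLC3A2 (7.15e-05), SLC7A11 (7.65e-05), LPCAT3 (2.93e-04), ACSL4 (6.19e-04), FTL (0.00102), ACSL3 (0.00316), AIFM2 (0.00556) and GPX4 (0.0487). The difference was not called for GPX4 without replicate 1 or 2 or 3 (0.0803 to 0.382), SLC3A2 without replicate 1 (0.0552), AIFM2 without replicate 1 (0.0907), FTL without replicate 1 (0.0543) and ACSL3 without replicate 2 or 3 (0.0512 and 0.143). SLC3A2 was called in opposite directions, up in H1975 and HCC2935 and down in PC9.

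Between DTPs and DMSO the genes were TFRC (7.58e-06), AIFM2 (8.27e-06), SLC7A11 (2.58e-05), ACSL4 (4.19e-05), FTH1 (6.20e-05), LPCAT3 (9.82e-04) and GPX4 (0.00334). It was not called for GPX4 without replicate 1 (0.0799). SLC7A11 was lower in PC9 and higher in HCC2935. Between DTPs and 24 h they were FTH1 (1.36e-07), ACSL4 (6.05e-05), SLC3A2 (2.53e-04), AIFM2 (0.00106), FTL (0.00133), TFRC (0.00636), ACSL3 (0.00892) and GPX4 (0.0343). It was not called for GPX4 without replicate 2 or 3 (0.1997 and 0.413), AIFM2 without replicate 1 (0.181), TFRC without replicate 1 (0.0505), FTL without replicate 3 (0.0553) and ACSL3 without replicate 3 (0.259). ACSL4 and FTL were called in opposite directions in HCC827 and HCC2935.

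Between long washout and DMSO they were FTH1 (2.66e-08), TFRC (7.25e-06), AIFM2 (3.49e-05), LPCAT3 (0.00162), ACSL4 (0.00253), GPX4 (0.00280), FTL (0.00648), SLC7A11 (0.0130) and ACSL3 (0.0262). It was not called for GPX4 without replicate 3 (0.0608), SLC7A11 without replicate 1 or 2 (0.0767 and 0.145), ACSL4 without replicate 1 (0.0528), FTL without replicate 3 (0.141) and ACSL3 without replicate 1 or 3 (0.251 and 0.119). FTH1 was higher in PC9, HCC827 and H1975 and lower in HCC2935, and LPCAT3 lower in HCC827 and higher in HCC2935. The lines had 3 to 10 days without drug there, so line and time cannot be told apart.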

How the results depend on the processing

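Of 250 log2 fold changes of the 10 genes, 132 were called, and none of these turned sign under any alternative. Under the alternatives other than leaving out libraries, 31 values lost their call under at least 1 setting and 25 gained one, and 4 of the tests of a difference between lines lost theirs. Another 77 were called under no setting, and 31 of them, between -0.17 and 0.15, changed sign. Values not called that changed sign and were called under some alternative were these, where the cause was not tested. With limma on log2 TPM the signs became positive for GPX4 and TFRC in PC9 DTPs (0.20 and 0.24), FTH1 in HCC2935 DTPs (0.00793), and, for DTP vs acute, LPCAT3 and FTL in PC9 (0.22 and 0.26) and SLC3A2 in HCC2935 (0.0138). On that scale the median of all genes in PC9 was 0.30 for DTP vs DMSO and 0.28 for DTP vs acute. In HCC2935 it was 0.19 and 0.17. Each limma value named here lay below the median of its comparison. FTL in PC9, DTP vs acute, was 0.0204 with at least 10 counts in every library, 9.66e-04 with DESeq2 and 9.64e-04 with RLE size factors, and TFRC in PC9 DTPs was 0.0382 with the first. LPCAT3 in PC9 DTPs was -0.00653 in the fit of all 60 libraries, -3.20e-05 with no filter, -0.00262 on its own libraries and -0.00347 with the replicate block besides. With 1 library left out the ranges were -0.0256 to 0.32 for ACSL4 (acute, H1975), -0.0403 to 0.0271 for FTL and -0.12 to 0.00811 for LPCAT3 (DTP vs acute, PC9), -0.0199 to 0.0385 for LPCAT3 in PC9 DTPs and -0.0259 to 0.11 in the mean of the 4 lines, -0.33 to 0.0169 for SLC3A2 (DTP vs acute, H1975) and -0.10 to 0.0790 for TFRC in PC9 DTPs.

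The number of the 10 genes called moved by over 1.5 times as follows. At an adjusted p under 0.01 it was 1 for DTP vs acute in HCC827, 3 for DTP vs DMSO in H1975 and HCC2935, 3 for long washout in PC9 and H1975, 0 for short washout in HCC2935 and 1 in the mean of the 4 lines. Limma on log2 TPM called 9 for DTP vs acute in PC9, where the median of all genes was 0.28 on that scale. It called 0 for short washout in HCC2935, where DESeq2 called 2. Fits on a comparison's own libraries called 3 for long washout and 5 for short washout in PC9, and the fit of all 60 libraries 3 for long washout in PC9. Without H1975 the mean of the lines called 1 for short washout. Leaving out 1 library gave 3 to 6 for DTP vs DMSO in HCC2935, 2 to 4 and 2 to 6 for DTP vs acute in H1975 and HCC827, 3 to 5 and 3 to 7 for long washout in H1975 and PC9, and 0 to 1 and 0 to 1 for short washout in H1975 and HCC2935. Leaving out 1 replicate number gave 1 in each case for the mean of the 4 lines in short washout, 6 to 8 genes for the difference between lines after 24 h and 5 to 7 for DTP vs acute.

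The replicate block, with all libraries of a line, left each count of the 10 genes within 1.5 times of the count without it, and changed the calls of 8 values (adjusted p with the block in parentheses). Lost were LPCAT3 for acute vs DMSO in H1975 (0.0526) and long washout in HCC2935 (0.0572), SLC7A11 for DTP vs DMSO in HCC2935 (0.0538), TFRC for DTP vs acute in PC9 (0.0507), GPX4 for long washout in PC9 (0.0578) and the difference between lines of GPX4 after 24 h (0.0703). Gained were ACSL3 for DTP vs acute in PC9 (0.0392) and SLC7A11 for long washout in HCC827 (0.0476). None of these lay in a single line's comparison in which the numbers pair the libraries, but the paired fit on own libraries gained SLC7A11 for acute vs DMSO in HCC2935 and FTH1 for short washout in H1975, which are 2 of those. A paired fit on a comparison's own libraries, chosen after seeing the data, called 3 of the 10 genes for long washout in H1975 and PC9, 4 for short washout in PC9, 1 in H1975 and 0 in HCC2935. Over all genes the calls for short washout in H1975 were 9, beside 56 with the replicate block, 509 with DESeq2 and 1697 in that paired fit.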
